A study of Mus musculus with 4 samples.

Results

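The 9 genes described here encode proteins of the tight junction, the seal near the apical edge of epithelial cells. They are 7 claudins (Cldn1, Cldn3, Cldn4, Cldn7, Cldn12, Cldn18 and Cldn23), the membrane protein occludin (Ocln) and the scaffold ZO-1 (Tjp1). They were chosen by symbol, and all 9 were found among the 40092 rows of the gene count table, each on a main chromosome. The count table also held 35 claudin rows in all, which were used as the family background.

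The data are RNA-seq libraries of alveolar type II (AT2) cells, the surfactant-producing progenitors of the alveolus, sorted as GFP+ cells from mouse lungs on day 14 after bleomycin injury. The control group (Ctrl, n = 2) carried Alkbh5flox/+ with Sftpc-CreERT2 and Rosa26-mTmG, and the knockout group (A5-CKO, n = 2) carried Alkbh5flox/flox with the same Cre driver and reporter. The paper names littermates as controls, but the litters of these libraries are not stated. All mice were given tamoxifen and bleomycin, so the controls also carried 1 floxed allele, the Cre and the injury. No uninjured library was used here. Cre under the Sftpc promoter recombines in cells that transcribed Sftpc at the time of tamoxifen, and the GFP label remains on their descendants whatever they become. The labels give no mouse identity or age, so p-values refer to the spread between libraries. In the fits, the spread of each gene was estimated in part from that of the other genes tested.

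Claudins span the membrane 4 times and pair with claudins of the neighbouring cell, and the mix of family members sets which ions and solutes pass between cells. Occludin is another membrane component of the strands, and ZO-1 links the strands to actin. In the alveolus, Cldn18, Cldn3 and Cldn4 are the best known claudins: Cldn18 is prominent in the flat alveolar type I (AT1) cells as well as in AT2 cells, Cldn3 is typical of AT2 cells, and Cldn4 is known for its induction in injured lung epithelium.

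Library totals ranged from 18144865 to 20811757 counts. Alkbh5, the gene deleted, had 81.7 and 152 CPM (counts per 1000000 of the library total, with TMM normalization factors applied, here and throughout) in Ctrl and 19.3 and 36.6 in A5-CKO. Its log2 fold change, A5-CKO against Ctrl, was -2.06 ± 0.46 (SE) with an adjusted p of 0.528 by edgeR's quasi-likelihood test. In that test none of 16661 genes (0%) had an adjusted p under 0.05, against 55 with DESeq2 on the same genes. At an unadjusted p under 0.05, 4.48% of genes were higher and 4.71% lower in A5-CKO. Both A5-CKO libraries lay above both Ctrl libraries for 20.3% of the genes and below for 23.5%. The 10 AT2 markers summed to 60863 and 85402 CPM in Ctrl against 45440 and 37247 in A5-CKO, with 10 of 10 lower by fold change and 7 lower in both A5-CKO libraries. In bulk RNA, fewer cells of a type and less RNA per cell cannot be told apart.

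All 9 genes passed the filter on low counts. None had an adjusted p under 0.05, and 1 (Cldn3, lower) had an unadjusted p under 0.05. By fold change 6 were higher and 3 lower in A5-CKO. For Cldn23, Tjp1 and Ocln each A5-CKO library exceeded each Ctrl library, and for Cldn3 each was below. Over all genes tested, 20.3% lay above and 23.5% below in this way. The median log2 fold change of the 9 was 0.35, beside -0.02 over all genes tested. With library totals alone in place of TMM factors these medians were 0.67 and 0.30, and after a correction for GC content and transcript length they were -0.012 and -0.08.

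**Figure D1:**
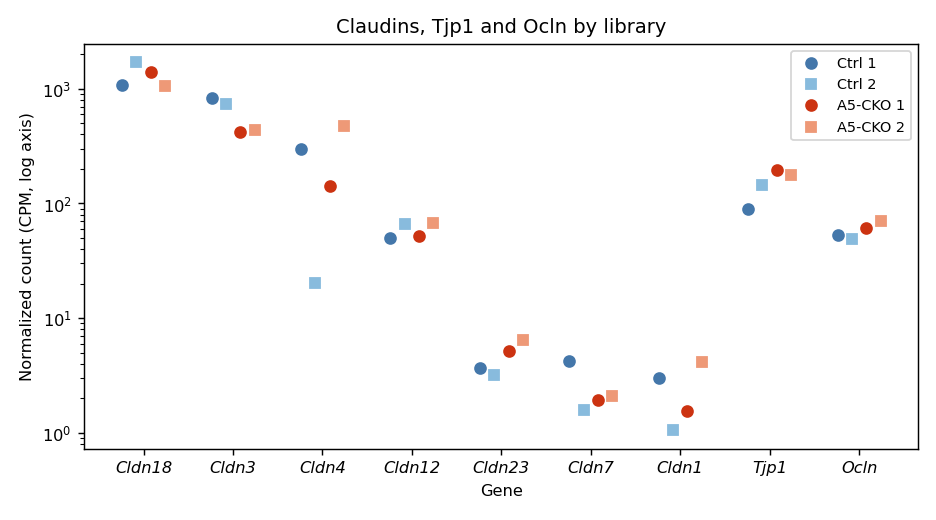
Normalized counts (CPM, log axis) of the 9 genes in each library, with circles for replicate 1, squares for replicate 2, blue for Ctrl and red for A5-CKO. Cldn3 lay at 742 to 828 CPM in Ctrl and at 420 to 437 in A5-CKO, while Cldn4 spread from 20.3 to 471 CPM with the groups overlapping.

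Compared per kilobase of exon, the genes fell into 3 tiers. Averaged over the 4 libraries, Cldn3 was highest with 482 CPM per kilobase, followed by Cldn18 with 294 and Cldn4 with 128. Tjp1 (20.7), Cldn12 (14.9) and Ocln (13.8 CPM per kilobase) formed the middle tier, and their ranges over the libraries overlapped one another. At the low end were Cldn23 (2.49), Cldn7 (1.27) and Cldn1 (0.747 CPM per kilobase), where each gene's range also overlapped that of the next. The order at the top was not the same in every library: Cldn4 stood above Cldn18 in A5-CKO 2, with 259 against 236 CPM per kilobase, and below Tjp1 in Ctrl 2, with 11.2 against 19.8. With the length of the longest transcript in place of the exon total, Cldn18 also passed Cldn3 in A5-CKO 1, with 43.5% against 43.1% of claudin reads per kilobase.

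Expressed as a share of all claudin reads per kilobase, which does not depend on how libraries are scaled, Cldn3 supplied most of the claudin transcripts in Ctrl and less than that in A5-CKO. Its share was 60.2% and 58.4% in the Ctrl libraries (59.3% ± 1.2 SD, n = 2) and 44.4% and 39.6% in the A5-CKO libraries (42.0% ± 3.4, n = 2). The groups did not overlap, but an exact two-sided permutation test of 2 against 2 cannot give a p under 0.333, so the spread between libraries is the only measure of error. Cldn18 supplied 22.2% and 37.9% in Ctrl against 42.0% and 27.0% in A5-CKO, with overlapping groups. Cldn4 supplied 15.0% and 1.11% in Ctrl against 10.3% and 29.6% in A5-CKO, also overlapping. Cldn23, although a small part of the family, had shares of 0.182% and 0.172% in Ctrl against 0.372% and 0.396% in A5-CKO, without overlap. The Cldn12 share also separated, at 1.15% and 1.65% in Ctrl against 1.75% and 1.95% in A5-CKO, although its CPM values overlapped. Shares within a library add to a fixed total, so a lower Cldn3 share by itself means a higher combined share of the other claudins. Its part in the Cldn23 and Cldn12 shares was not tested. Outside the 7 claudins described, the other 28 claudin rows together made up between 0.608% and 1.13% of a library's claudin reads per kilobase.

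**Figure D2:**
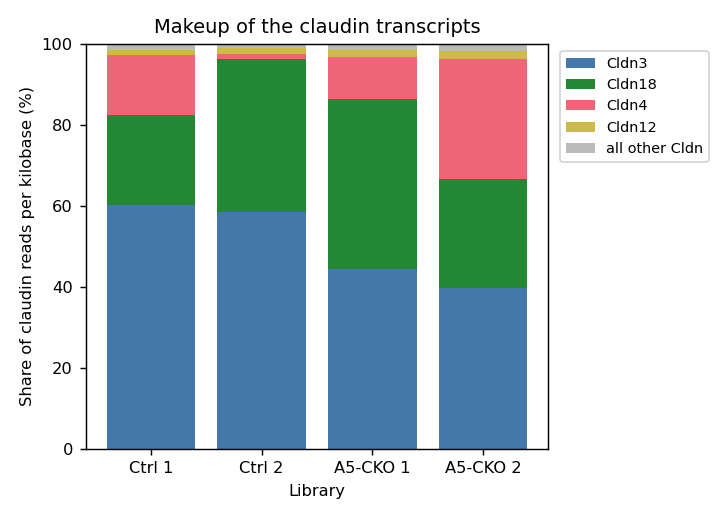
Share (%) of claudin reads per kilobase of exon taken by each claudin in each of the 4 libraries, stacked to 100%. The shares were not corrected for GC content. Cldn3 (bottom) took 60.2% and 58.4% in Ctrl against 44.4% and 39.6% in A5-CKO, and the Cldn4 share ran from 1.11% in Ctrl 2 to 29.6% in A5-CKO 2.

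Cldn3 and Cldn4 are single-exon genes that lie next to each other on mouse chromosome 5 (GRCm38), 39.279 kb apart, on opposite strands. Cldn3 occupies bases 134986214 to 134987476 on the plus strand and Cldn4 bases 134945123 to 134946934 on the minus strand. The 250 bases before each start, from RefSeq (GRCm38.p6), are shown because these neighbours behaved differently across the libraries. Capitals mark matches to TGANTCA, the core letters bound by AP-1, a factor family induced by stress and growth signals.
Cldn3, chr5:134985964-134986213, plus strand: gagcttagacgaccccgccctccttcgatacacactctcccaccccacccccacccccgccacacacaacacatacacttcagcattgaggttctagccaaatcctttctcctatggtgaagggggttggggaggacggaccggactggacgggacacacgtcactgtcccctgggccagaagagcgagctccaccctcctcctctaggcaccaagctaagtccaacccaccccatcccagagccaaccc
Cldn4, chr5:134946935-134947184, minus strand: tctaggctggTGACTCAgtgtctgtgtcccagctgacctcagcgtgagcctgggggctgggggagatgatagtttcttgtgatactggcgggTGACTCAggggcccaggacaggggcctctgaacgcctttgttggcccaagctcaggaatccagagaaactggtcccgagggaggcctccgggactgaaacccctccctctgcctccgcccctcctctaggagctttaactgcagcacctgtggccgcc
The Cldn4 window held 2 such matches, 240 to 234 and 158 to 152 bases before the start, and the Cldn3 window held none. Of 32851 RefSeq windows of this length, 6.75% held at least 1 match on either strand. Each of the 2 windows had 1 match to GGGCGG, the core letters of an SP1 box, read on either strand, a sequence found in 32.7% of all windows. Neither held AACCNGTT (grainyhead-like factors, 1.79% of windows), GGAATG (TEAD factors, 12.6%) or CAAGTG (NKX2-1, 11.6%). Among the 8 genes with promoter sequences, only the Cldn4 window matched TGANTCA. The window of Cldn1, a gene that took the library order of Cldn4, held no such match. A match describes the letters only.

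Cldn3, a sealing claudin, had 828 and 742 CPM in Ctrl against 420 and 437 in A5-CKO. The genotypes did not overlap, A5-CKO being lower, and the libraries of a group were close to each other. The log2 fold change was -0.87 ± 0.33 (SE, 95% interval -1.65 to -0.10), with an unadjusted p of 0.0328 and an adjusted p of 0.528 in edgeR's quasi-likelihood test. It remained negative under each alternative run, between -0.97 and -0.42. The value nearest 0 came from the correction for GC content and length, where the unadjusted p was 0.179, and with library totals alone it was -0.56 with an unadjusted p of 0.136. The Cldn3 transcript has a GC content of 62.7%, the highest of the 9 genes. The 3′ end of Cldn3 overlaps the noncoding gene Wbscr25 by 44 bases, which had 288 to 454 counts against 9276 to 14006 for Cldn3. The AT2 marker sum was lower in the same A5-CKO libraries, and its part in the Cldn3 difference was not tested.

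Cldn4, which tightens junctions against sodium in many epithelia, varied more within a genotype than between genotypes. It had 297 and 20.3 CPM in Ctrl against 141 and 471 in A5-CKO, from raw counts of 5026, 349, 3112 and 11023. Ctrl 2 was thus the lowest and A5-CKO 2 the highest, and the Ctrl libraries lay on either side of A5-CKO 1. The fold between the Ctrl libraries was 14.6, a fold that only 2.25% of the genes tested reached. The log2 fold change between genotypes was 0.95 ± 1.08 (SE, 95% interval -1.62 to 3.52), with an adjusted p of 0.765 by edgeR. Which library was left out decided its value: it was 4.01 without Ctrl 1 (unadjusted p 0.0045, adjusted p 0.492), 0.03 without Ctrl 2, 1.57 without A5-CKO 1 and -0.17 without A5-CKO 2.

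Genes of several marker lists were low in the same libraries as Cldn4, though few took its full order. Of the 10 transitional-state markers, 6 were lower in Ctrl 2 and A5-CKO 1 than in the other two libraries, as were 6 of 10 leukocyte markers and 7 of 8 mesenchymal markers, against 15.6% of all genes tested. The full order of Cldn4 was found in 1 of 10 transitional, 2 of 10 leukocyte and 0 of 8 mesenchymal markers, against 5.14% of all genes tested. The transitional marker with that order was Krt19, a keratin of the state between AT2 and AT1 cells, with 262 and 103 CPM in Ctrl against 148 and 295 in A5-CKO. Krt8 and Ctsh were also among the 6 low in those libraries. Ctsh was lowest in A5-CKO 1, and Krt8 was nearly equal in A5-CKO 1 and Ctrl 2, at 537 CPM in each. Areg, Hbegf and Cdkn1a differed, being higher in both A5-CKO libraries. By fold change 8 of the 10 were higher and 2 lower in A5-CKO, with 3 higher and 0 lower in both A5-CKO libraries. Areg (unadjusted p 0.014) and Hbegf (unadjusted p 0.0108) were higher, each with an adjusted p of 0.528 by edgeR. The summed transitional markers were 7177 and 3697 CPM in Ctrl against 3360 and 5487 in A5-CKO. Ctsh, 1 of the 2 lower genes, took 3235 and 2132 CPM of these sums in Ctrl against 1018 and 2170 in A5-CKO. The other, Nupr1, had 933 and 162 CPM in Ctrl against 243 and 194 in A5-CKO. Mesenchymal markers summed to 425 and 156 CPM in Ctrl against 98.8 and 1105 in A5-CKO. The leukocyte sums were 2083 and 2366 CPM in Ctrl against 1816 and 1568 in A5-CKO, most of which came from Lyz1 (1461 and 2182 against 1581 and 732 CPM). Without Lyz1, left out after its values were seen, the other 9 summed to 623 and 184 CPM in Ctrl against 235 and 836 in A5-CKO. These sums took the library order of Cldn4 only through that choice, and the sums of all 10 leukocyte markers did not. The part of these cells in the Cldn4 values was not tested.

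**Figure D3:**
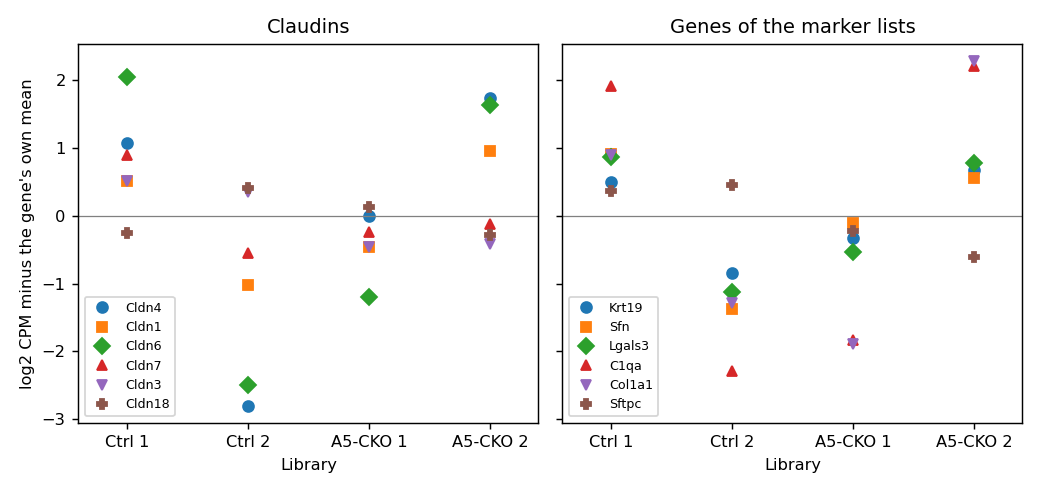
Deviation of log2 CPM in each library from the gene's own mean over the 4 libraries, for claudins (left) and for genes of the marker lists chosen after their values were seen (right). Cldn4, Cldn1, Cldn6 and Cldn7, like Krt19, Sfn, Lgals3, C1qa and Col1a1, were lower in Ctrl 2 and A5-CKO 1 than in Ctrl 1 and A5-CKO 2. For Cldn7 the margin was narrow, with 1.95 CPM in A5-CKO 1 and 2.09 in A5-CKO 2. Cldn3, Cldn18 and Sftpc did not have this pattern. Over the full lists, 6 of 10 transitional, 6 of 10 leukocyte and 7 of 8 mesenchymal markers had it.

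Cldn18, on chromosome 9 (99690796 to 99717267, minus strand), is transcribed from 2 starts. The upstream start gives the form used in lung and the downstream start the form used in stomach, and gene-level counts do not separate them. The 250 bases before each RefSeq start are given because the deposited counts add the forms together. Neither held TGANTCA, so the sequences carry no capitals.
Cldn18 upstream start, chr9:99717268-99717517, minus strand: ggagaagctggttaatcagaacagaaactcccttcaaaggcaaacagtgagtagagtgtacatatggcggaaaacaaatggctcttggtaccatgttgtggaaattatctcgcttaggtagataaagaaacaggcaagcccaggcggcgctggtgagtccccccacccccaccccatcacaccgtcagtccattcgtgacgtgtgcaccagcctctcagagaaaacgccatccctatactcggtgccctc
Cldn18 downstream start, chr9:99710064-99710313, minus strand: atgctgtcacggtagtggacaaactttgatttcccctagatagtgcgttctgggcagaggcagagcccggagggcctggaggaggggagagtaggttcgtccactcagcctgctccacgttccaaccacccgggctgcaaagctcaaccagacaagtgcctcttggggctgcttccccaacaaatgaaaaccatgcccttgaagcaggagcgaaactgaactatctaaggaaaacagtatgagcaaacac
CAAGTG, the core letters bound by the lung factor NKX2-1, occurred once before the downstream start, 98 to 93 bases away, and not in the window of the upstream one. Neither held GGGCGG.

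Cldn18 had 1079 and 1703 CPM in Ctrl against 1406 and 1052 in A5-CKO, the highest CPM of the 9 genes before length was taken into account. Groups overlapped, with a log2 fold change of -0.18 ± 0.41 (SE, 95% interval -1.14 to 0.78) and an adjusted p of 0.892 by edgeR. The interval allows a change of either sign, and the sign itself turned with library totals alone (0.15) and without Ctrl 2 (0.16) or A5-CKO 2 (0.01).

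The other claudins were scarce by comparison. Cldn12, a claudin linked to calcium permeability (chromosome 5, 5505015 to 5514976), had 49.6 and 65.7 CPM in Ctrl against 51.6 and 67.1 in A5-CKO, the narrowest spread of the 9 genes. Its log2 fold change was 0.04 ± 0.31 (SE, 95% interval -0.70 to 0.78), and the spread between libraries of 1 genotype was larger than the difference between genotypes.

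Cldn23 (chromosome 8, 35824709 to 35826559) had 3.67 and 3.20 CPM in Ctrl against 5.16 and 6.41 in A5-CKO, from 55 to 150 counts. Both A5-CKO libraries were higher, with a log2 fold change of 0.75 ± 0.52 (SE, 95% interval -0.49 to 2.00) and an adjusted p of 0.626 by edgeR. Its fold change was positive under each alternative run, from 0.59 to 1.07.

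Cldn1, a barrier claudin of skin and many other epithelia (chromosome 16, 26356645 to 26371839), had 18 to 96 counts. At 3.02 and 1.05 CPM in Ctrl against 1.54 and 4.10 in A5-CKO it took the same order of libraries as Cldn4, an order shared by 5.14% of all genes tested. The log2 fold change was 0.47 ± 0.80 (SE) with an adjusted p of 0.855 by edgeR, and it became -0.11 without Ctrl 2 and -0.40 without A5-CKO 2.

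Cldn7 (chromosome 11, 69964779 to 69967886), found also on the lateral membrane of epithelial cells, had 4.26 and 1.57 CPM in Ctrl against 1.95 and 2.09 in A5-CKO, from 27 to 72 counts. The high value was that of Ctrl 1, and the log2 fold change of -0.53 ± 0.70 (SE, adjusted p 0.807 by edgeR) became 0.44 without that library. Counts were sparse around this gene: 5 of its 10 nearest protein-coding genes had at most 10 counts in every library, against 28.8% of 20403 protein-coding genes. They included Gabarap, an autophagy gene used by most cells, with 2, 2, 0 and 0 counts, and Ctdnep1 and Phf23 with 0 counts in each library. The level of Cldn7 is therefore uncertain, and the cause of the sparse counts was not tested.

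Occludin (Ocln, chromosome 13, 100496504 to 100552718) had 53.5 and 48.8 CPM in Ctrl against 60.7 and 69.7 in A5-CKO. Both A5-CKO libraries were higher, with a log2 fold change of 0.35 ± 0.28 (SE, 95% interval -0.32 to 1.02) and an adjusted p of 0.668 by edgeR. The correction for GC content and length brought it to -0.012; the longest Ocln transcript has 4052 bases and a GC content of 42.0%.

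Tjp1 (chromosome 7, 65296165 to 65527850), the ZO-1 scaffold, had 90.4 and 146 CPM in Ctrl against 196 and 177 in A5-CKO. Each A5-CKO value exceeded each Ctrl value, though Ctrl 2 lay nearer to A5-CKO 2 than to Ctrl 1 on this scale. Its log2 fold change was 0.66 ± 0.34 (SE, 95% interval -0.16 to 1.47), with an unadjusted p of 0.0975 and an adjusted p of 0.549 by edgeR. With library totals alone the value was 0.99 with an unadjusted p of 0.0198 (adjusted p 0.411 by edgeR), a scaling that also moved the median of all genes up, to 0.30. Every alternative gave a positive value, from 0.33 once GC content and length were corrected for to 1.02 without Ctrl 2.

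**Figure D4:**
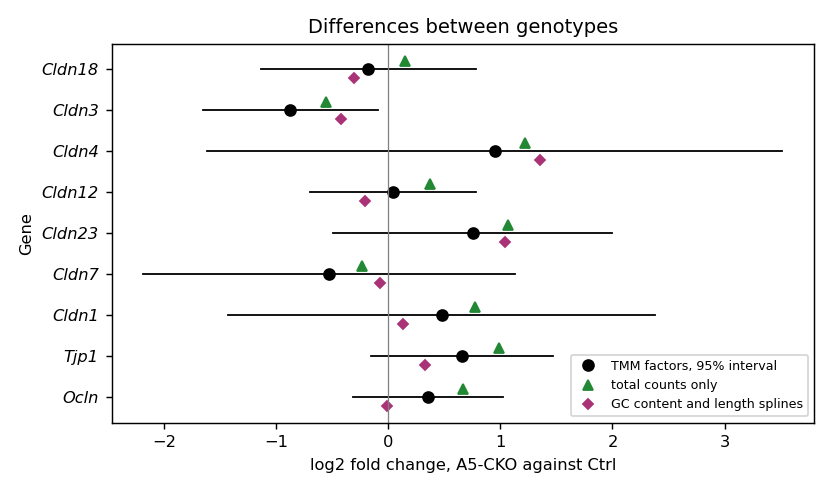
Log2 fold change, A5-CKO against Ctrl, of the 9 genes: black points with 95% intervals from edgeR with TMM factors, green triangles from library totals alone, purple diamonds after a correction for GC content and length. The intervals of 8 genes include 0, that of Cldn3 runs from -1.65 to -0.10, and the purple values of Cldn3 (-0.42) and Ocln (-0.012) lie nearer 0 than the black ones.

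Within the claudin family, 14 of the 35 rows passed the filter on low counts and 11 rows had no count in any library. By fold change 7 of the 14 were higher and 7 lower in A5-CKO, with a median of -0.07. Cldn6, a claudin of embryonic epithelia, had 8.22 and 0.349 CPM in Ctrl against 0.860 and 6.16 in A5-CKO. Like Cldn4 it was low in Ctrl 2 and A5-CKO 1, from 6 and 19 counts, but it was highest in Ctrl 1. Its log2 fold change was -0.29 ± 1.35 (SE, adjusted p 0.949 by edgeR). The channel-forming claudin Cldn2 had 1.54 and 1.22 CPM in Ctrl against 2.72 and 2.74 in A5-CKO, giving a log2 fold change of 0.98 ± 0.62 (SE, adjusted p 0.592 by edgeR). Cldn8 was also higher in both A5-CKO libraries (0.53), and Cldn22 (0.51) overlapped. Cldn10 (-0.61), Cldn15 (-0.76) and Cldn34c1 (-0.71) were lower in both. All these values are on the log2 scale, and none had an adjusted p under 0.05. Cldn34c1 has close copies in Cldn34c2, Cldn34c3 and Cldn34c4, and reads matching several copies are lost where only uniquely mapped reads are counted. Cldn5, the endothelial claudin, had 0 counts in each library, which allows up to 0.177 CPM in the shallowest after scaling. Its level is as uncertain as that of Cldn7, since 6 of its 10 nearest protein-coding genes had at most 10 counts in every library.

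The remaining junction genes were read from fixed lists. Of 23 further tight junction proteins 22 were tested, 9 higher and 13 lower, with a median log2 fold change of -0.05. Tjp3, which encodes ZO-3, had 213 and 151 CPM in Ctrl against 122 and 70.1 in A5-CKO, giving a log2 fold change of -0.92 ± 0.38 (SE, unadjusted p 0.0468, adjusted p 0.528 by edgeR), opposite in sign to that of its relative Tjp1. The most abundant by CPM of this list were F11r, which encodes the adhesion molecule JAM-A (-0.17 on the log2 scale), and Cgnl1, a scaffold related to cingulin (0.06). Among 18 tested polarity genes 10 were higher and 8 lower. Crb3, which encodes the apical determinant Crumbs3, had a log2 fold change of -0.88 (unadjusted p 0.0296), and Mpp5, the PALS1 scaffold that binds it, one of 0.86 (unadjusted p 0.0446), each with an adjusted p of 0.528 by edgeR. Amotl2 and Llgl2, the most abundant of the polarity list, had log2 fold changes of -0.03 and -0.49.

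Neighbouring junctions held no gene with an unadjusted p under 0.05, beside 4.48% of all genes tested higher and 4.71% lower in A5-CKO. Beside the same shares, the tight junction list held 1 lower of 22 tested, and the polarity list 1 higher and 1 lower of 18. Of 10 adherens junction genes 4 were higher and 6 lower, and Ctnnb1 (β-catenin) and Cdh1 (E-cadherin), the most abundant, had log2 fold changes of -0.20 and -0.35. Of 7 desmosomal genes tested 4 were higher and 3 lower, and Jup (plakoglobin) and Dsp (desmoplakin) had log2 fold changes of -0.44 and 0.54. Among 14 transcription factors of epithelial junctions, Klf4 had 36.7 and 31.2 CPM in Ctrl against 138 and 74.7 in A5-CKO, giving a log2 fold change of 1.65 ± 0.38 (SE, unadjusted p 0.00336). Cebpa, a factor of AT2 identity, had 1045 and 1532 CPM in Ctrl against 404 and 470 in A5-CKO, giving a log2 fold change of -1.56 ± 0.38 (SE, unadjusted p 0.00461). Both had an adjusted p of 0.528 by edgeR. Nkx2-1, the lung lineage factor, had a log2 fold change of -0.26.

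Markers of other cell types were read beside the junction genes. Of 10 AT1 markers, 8 were tested, 6 were higher by fold change and 4 were higher in both A5-CKO libraries, with a median log2 fold change of 0.60. The list had sums of 2336 and 2214 CPM in Ctrl against 2153 and 2320 in A5-CKO. Aqp5, lower in A5-CKO, took 981 and 951 CPM of these sums in Ctrl against 479 and 636 in A5-CKO. Igfbp2 was also lower by fold change (-0.64 on the log2 scale). Without Aqp5, a choice made after its values were seen, the other 7 summed to 1355 and 1263 CPM in Ctrl against 1674 and 1684 in A5-CKO. The genotypes separated only through that choice, since the sums of the full list overlapped. Of the defining AT1 genes, Ager had 2 to 6 counts and Pdpn 0 to 17 counts. Rnf5, beside Ager, had 0 counts in each library, so the level of Ager is as uncertain as that of Cldn7. Endothelial markers summed to 339 and 485 CPM in Ctrl against 315 and 330 in A5-CKO. Among the airway lists, 5 of 6 club cell markers and 6 of 6 ciliated cell markers were lower in A5-CKO by fold change. Of these, 3 club and 5 ciliated markers were lower in both A5-CKO libraries. Muc5b, the club marker that was higher, had 10.5 and 13.8 CPM in Ctrl against 27.0 and 26.3 in A5-CKO. Club cell sums were 4941 and 4624 CPM in Ctrl against 2962 and 2578 in A5-CKO. Ciliated cell sums were 165 and 154 CPM in Ctrl against 143 and 53.7 in A5-CKO. Tppp3 took 108 and 104 CPM of the ciliated sums in Ctrl against 119 and 35.8 in A5-CKO. Of the 10 leukocyte markers 5 were higher and 5 lower by fold change, with a median log2 fold change of 0.07. The 1 with an unadjusted p under 0.05, Ptprc, was 50.9 and 22.5 CPM in Ctrl against 84.3 and 82.8 in A5-CKO (log2 fold change 1.19, unadjusted p 0.026, adjusted p 0.528 by edgeR). The part of these cells in the values of the 9 genes was not tested.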

How the data were processed

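RNA from sorted AT2 cells was sequenced with 1 library per sample. The authors deposited raw counts per gene, and the submitters' processing notes name Trim Galore 0.6.10, HISAT2 2.2.1, featureCounts 2.0.3 and mm10. The paper also describes removing ribosomal RNA and duplicate reads. Under its MeRIP-seq heading it describes gene counts from uniquely mapped reads. The effect of these steps on the levels per kilobase was not tested. The strand setting is not given in the sources used here, so reads of overlapping genes on opposite strands cannot be told apart. Genes passing filterByExpr (16661 of 40092) were fitted with edgeR 4.0.16 (R 4.3.3) by genotype, with TMM factors, the quasi-likelihood test and Benjamini-Hochberg adjustment over all genes tested. Alternatives used other scaling factors, DESeq2 1.42.0, limma 3.58.1 (voom), other count filters (including at least 10 counts in every library), a robust fit, the replicate number as a block, splines with 4 degrees of freedom on GC content and length, and each library left out. Marker sums without Lyz1 or Aqp5 were added after seeing the data. The code was tested on simulated data. GC content and length came from the longest annotated GENCODE transcript (15237 genes, 91.5%; for Cldn1 a retained-intron form), and levels per kilobase from exons of protein-coding transcripts. A count of 0 was read as up to 3 counts. Promoter sequences were found for 8 of the 9 genes (not Cldn23), and motifs were searched on both strands. Counts carry counting error as well as the spread between libraries. The genes described and the gene lists were chosen with earlier results of these data known. Genes were named by a fixed rule: the 9 genes, Alkbh5, each claudin that passed the filter and, from each junction list, up to 4 genes with an unadjusted p under 0.05 and the 2 with the highest mean CPM; marker genes, genes near Cldn7 and Cldn5 and Wbscr25 were named after their values were seen.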

Additional observations from a re-analysis of the deposited data

How the results depend on the processing

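No alternative gave any of the 9 genes an adjusted p under 0.05. The number with an unadjusted p under 0.05 was 1 (Cldn3) and became 0 with upper-quartile factors, with the replicate block and once GC content and length were corrected for; with library totals alone it was 1, but Tjp1 (0.99, unadjusted p 0.0198) in place of Cldn3 (-0.56, unadjusted p 0.136). It was 0 to 2 with a library left out, namely 1 without Ctrl 1 (Cldn4 in place of Cldn3), 2 without Ctrl 2 (Cldn3 and Tjp1) and 0 without A5-CKO 1 or A5-CKO 2. The number of all genes with an adjusted p under 0.05 was 0, against 55 with DESeq2 on the same genes and 59 with its default filtering, and 0 to 1 with a library left out (1 without A5-CKO 2). Alkbh5 had log2 fold changes of -2.01 (adjusted p 0.0248) and -2.02 (adjusted p 0.0235) under these DESeq2 fits, and from -2.60 to -1.56 with a library left out. The cause of these differences between settings was not tested.

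The median log2 fold change of the 9 genes turned to -0.012 after the GC content and length correction and ranged from -0.16 to 0.45 with a library left out, the former without A5-CKO 2. Signs of single genes turned as follows. With library totals alone, Cldn18 was at 0.15. Corrected for GC content and length, Cldn12 was at -0.21 and Ocln at -0.012. Without Ctrl 1, Cldn7 was at 0.44 and Cldn12 at -0.06. Without Ctrl 2, Cldn1 was at -0.11 and Cldn18 at 0.16. Without A5-CKO 2, Cldn1 was at -0.40, Cldn4 at -0.17, Cldn12 at -0.16 and Cldn18 at 0.01. The highest or lowest values with a library left out were 1.52 for Cldn1 and 4.01 for Cldn4 (both without Ctrl 1), and -1.10 for Cldn7 and 0.24 for Cldn12 (both without Ctrl 2). Cldn3, Cldn23 and Tjp1 kept their direction under the 15 alternatives. With lengths of the longest transcript, the Cldn3 share of claudin reads in Ctrl 2 was 56.9% in place of 58.4%, and in A5-CKO 1 Cldn18 (43.5%) stood above Cldn3 (43.1%) in place of 42.0% against 44.4%.

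The replicate numbers are not stated to pair mice, and deviations of same-numbered libraries correlated at -0.348. With the replicate block, 754 genes had an unadjusted p under 0.05 against 1530 without it, Cldn3 had a log2 fold change of -0.87 (adjusted p 0.847) and Cldn4 one of 1.72 (adjusted p 0.872). With 2 libraries per genotype, the 95% interval of Cldn4 spans -1.62 to 3.52, so a sizeable change of either sign would go undetected. Cldn1, Cldn7 and Cldn23, with 18 to 150 counts per library, also carry sizeable counting error.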
